A study of Rattus norvegicus with 54 samples.

Results

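Spetex2l2, named in the rat annotation as Spetex-2 protein like 2, was 1 of 45785 named genes in a table of read counts from the nucleus accumbens of Long Evans rats, and it was taken by its name. It had been chosen by its read counts in the adult libraries, where its level was lower in ethanol-exposed adults than in adult controls. Its values in adults are therefore given as a description, with no test. Around it, 54 other named genes lie within 1 Mb on chromosome 9, and 23 genes of the table, Spetex2l2 included, carry a symbol that begins with Spetex.

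The nucleus accumbens is the ventral part of the striatum and takes part in reward and motivation. All 54 libraries came from Long Evans rats of 8 groups. Prenatally, rats of the control groups came from the free-choice liquid diet arm (FCL) and those of the exposed groups from the ethanol arm (PAE). In adolescence they were given either water as vehicle (VEH) or alcohol (AAE). The adolescents were taken on postnatal day 42 (P42), which was 24 h past their final exposure. At that age there were 9 male and 7 female FCL-VEH libraries and 9 male and 4 female PAE-VEH libraries. At P90, with no further challenge, there were 6 male and 8 female FCL-VEH libraries and 6 male and 5 female PAE-AAE libraries. FCL-VEH is called control here. The adult exposed rats had both prenatal ethanol and adolescent alcohol, so the 2 exposures cannot be told apart, and a pair-fed arm of the study was not analysed here. The labels give neither litters nor a statement that each library is a separate animal, so p-values measure the spread between these libraries.

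Spetex-2 genes are rat genes first described from spermatids, the haploid germ cells that become sperm. They are related to the takusan (alpha-takusan) family of rodents, a large set of near-identical duplicated copies that derive in part from Dlg5, a scaffold protein of cell junctions, and some takusan proteins have been studied for their effect on synapses. Such copies sit in clusters, and their number can vary between genomes. A read that matches several of them cannot be given to 1 copy with certainty. How the authors' counting treated such reads is not given in the sources used here, so the split of counts between copies is uncertain throughout.

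Spetex2l2 spans positions 3183357 to 3253392 of chromosome 9 on the + strand, with an exonic length of 5984 bases and 11 RefSeq transcripts in the rat assembly GRCr8. The deposited table names the Takusan domain in the description of 416 genes, 10 of them neighbours of Spetex2l2, but names no domain for Spetex2l2 itself. To show how alike copies of the cluster are, the 250 bases before an annotated start are given for 3 genes, all from RefSeq on GRCr8 and all on the + strand. They are reference sequence and were not read from these rats. Spetex2l2 has 8 annotated start windows, and the one shown is the most upstream, at chr9:3183107-3183356. Spetex2el1 is shown at chr9:2900283-2900532 because it is the Spetex gene with the second highest level per length. Spetex2el6 is shown at chr9:2705479-2705728 as its copy. In Spetex2l2 the capitals mark the run of 246 bases found letter for letter in the window of LOC134480310, an uncharacterized neighbour. In the other two sequences they mark the longest run of 99 bases that they share.
Spetex2l2: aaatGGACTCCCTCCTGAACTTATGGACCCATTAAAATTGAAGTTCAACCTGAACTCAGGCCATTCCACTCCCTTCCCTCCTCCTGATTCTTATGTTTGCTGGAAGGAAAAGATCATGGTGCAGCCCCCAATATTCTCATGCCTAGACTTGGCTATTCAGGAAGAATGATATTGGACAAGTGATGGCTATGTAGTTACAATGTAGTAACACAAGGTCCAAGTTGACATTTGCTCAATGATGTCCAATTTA
Spetex2el1: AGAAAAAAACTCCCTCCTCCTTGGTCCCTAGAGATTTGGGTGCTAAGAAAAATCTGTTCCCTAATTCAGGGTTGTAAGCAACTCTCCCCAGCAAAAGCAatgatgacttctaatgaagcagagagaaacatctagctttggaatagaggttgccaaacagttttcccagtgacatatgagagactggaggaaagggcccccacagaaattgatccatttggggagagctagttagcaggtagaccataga
Spetex2el6: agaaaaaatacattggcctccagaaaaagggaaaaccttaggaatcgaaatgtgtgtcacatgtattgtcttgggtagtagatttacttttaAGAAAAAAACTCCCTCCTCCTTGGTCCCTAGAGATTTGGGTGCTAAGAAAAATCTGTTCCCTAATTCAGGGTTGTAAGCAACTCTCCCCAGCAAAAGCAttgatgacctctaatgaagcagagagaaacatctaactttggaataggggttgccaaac

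The Spetex2l2 window shared at least 1 stretch of 31 bases with windows of 6 other genes, all of them on chromosome 9, among 33469 windows of 27457 genes. The Spetex2el1 window did so with 18 other genes, again all on chromosome 9, and it matched the Spetex2el6 window at 154 of 158 aligned bases. The longest local match between Spetex2l2 and Spetex2el1 was 11 bases. The letters of 4 motifs, which do not overlap each other in these windows, were looked for on both strands. The CCAAT box (CCAAT) was present in the Spetex2l2 window, as in 34.0% of all windows. The TATA box (TATAAA, in 12.9% of windows), the GC box (GGGCGG, 30.5%) and the cAMP response element (TGACGTCA, 1.59%) were not among its letters. LOC134480310, which shares the 246 bases, reached at most 16 counts in any library and Spetex2l2 at least 465. Only the most upstream of the 8 Spetex2l2 windows was compared, and which start is used in this tissue was not tested.

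Depth was 58.8 to 103.5 M counts per library over named genes. In 3 P42 libraries the markers Xist, which coats the inactive X chromosome of females, and Kdm5d, a Y-linked demethylase gene, went against the labelled sex: 1 labelled control male, 1 labelled control female and 1 labelled PAE-VEH male. At P90, control male replicate 6 (Xist 53.3 CPM, read counts relative to the TMM-scaled library size, and Kdm5d 28.6 CPM) and PAE-AAE male replicate 5 (Xist 30.8 CPM, Kdm5d 42.7 CPM) carried both markers, against 0.18 to 9.01 CPM of Xist in the other P90 males. All 5 were kept in the values given first. Spiny neuron markers were high in the libraries, with mean levels of 1523 CPM for Ppp1r1b, 1064 CPM for Pde10a and 901 CPM for Penk.

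Spetex2l2 was detected in every library, from 465 to 4310 counts, and its levels fell into 2 ranges with an empty interval between them. In 28 libraries it lay between 6.88 and 11.2 CPM, and in 26 between 15.1 and 55.5 CPM. Both ranges occurred in both sexes and at both ages.

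At P42, Spetex2l2 ranged in the 9 control males from 7.35 through a median of 17.8 to 40.9 CPM. In the 9 PAE-VEH males it ranged from 7.29 through 8.59 to 40.8 CPM. The ranges of the 2 male groups overlapped almost completely, but 7 of the 9 exposed libraries were in the low range against 3 of the 9 control libraries.

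In the 7 control females at P42 the level ranged from 8.02 through 23.1 to 54.7 CPM. The 4 PAE-VEH females had 9.59, 36.4, 7.77 and 8.74 CPM. A single exposed female, at 36.4 CPM, stood among the high control libraries, and the other 3 were close to the lowest control females.

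At P90, the 6 control males had 27.5, 37.1, 22.9, 41.8, 30.5 and 24.7 CPM, counted over replicates 1 to 6. The 6 PAE-AAE males ranged from 6.88 through 10.4 to 17.9 CPM. These male groups did not overlap, since the highest exposed male was below the lowest control male.

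The 8 control females at P90 ranged from 8.61 through 25.1 to 55.5 CPM. The 5 PAE-AAE females had 8.34, 8.61, 8.70, 10.8 and 9.78 CPM. The exposed females were all low and close together, whereas 2 of the 8 control females, at 8.61 and 9.49 CPM, were as low as they were.

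Ordered by median, the groups ran from control males at P90 over control females at P90, control females at P42 and control males at P42 to PAE-AAE males, PAE-VEH females, PAE-AAE females and PAE-VEH males. Each group overlapped the next in this order. Most groups held libraries of both ranges, so this overlap says little about separation. The 4 control groups had the 4 highest medians, but the adult groups among them took part in choosing the gene.

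**Figure D1:**
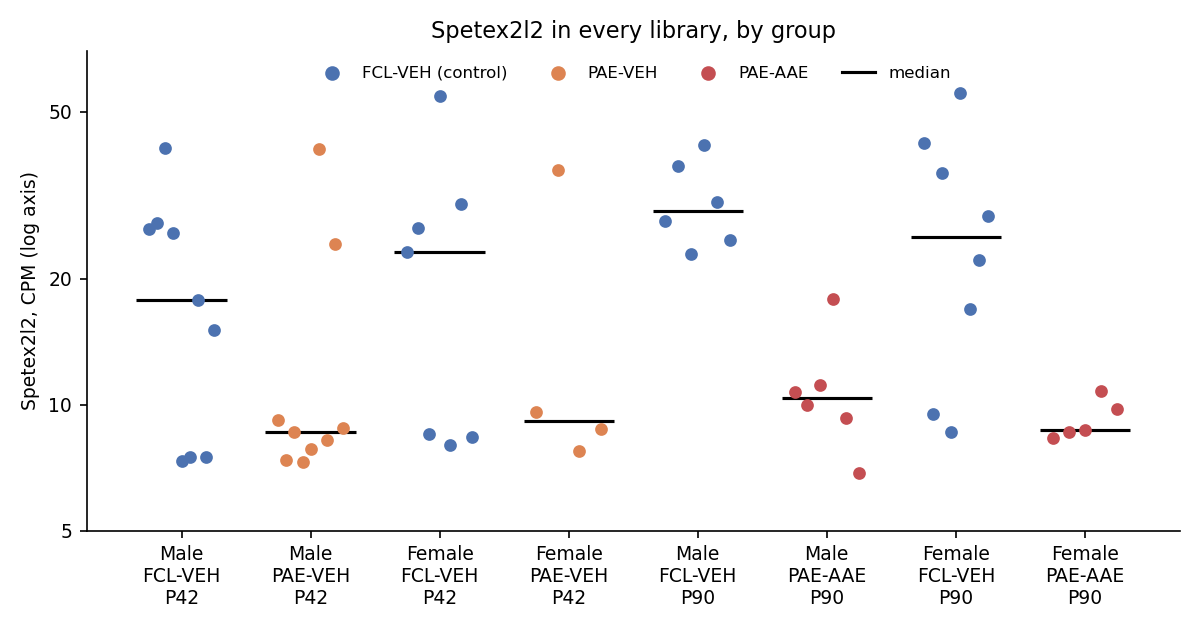
Spetex2l2 in CPM (log axis) in each of 54 libraries, by group; each point is a library and the black line is the group median. Libraries lie either between 6.88 and 11.2 CPM or between 15.1 and 55.5 CPM, and at P90 10 of 11 PAE-AAE libraries are in the lower range.

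The difference in adults, which chose the gene, had the same sign and nearly the same size in both sexes. Spetex2l2 was lower in PAE-AAE than in control males by a log2 difference of -1.49 ± 0.33 (SE, n = 6 and 6), or 2.81-fold. In females the log2 difference was -1.57 ± 0.34 (SE, n = 5 and 8), or 2.96-fold. Averaged over the sexes it was -1.53 ± 0.24, and the female minus male difference was -0.08 ± 0.46. The choice of the gene rests on this contrast, in which it was the 1 gene called of 24018 (0.00416%), so nothing is read from that count and no p-value is given. Leaving out 1 adult library at a time gave log2 differences between -1.62 and -1.41. The gene stayed past the threshold in 11 of these 25 fits and fell short of it in 14, where the log2 difference was -1.56 to -1.47. The call was thus not stable, and it belongs to the choice of the gene, so nothing more is read from it.

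The P42 libraries took no part in that choice and give an independent comparison of prenatal ethanol alone. Spetex2l2 was not different beyond the spread between libraries. In males the log2 difference of PAE-VEH from control was -0.51 ± 0.44 (SE; adjusted p = 0.777, edgeR quasi-likelihood test with Benjamini-Hochberg adjustment). An exact two-sided permutation test of log2 CPM in males gave p = 0.198 for a difference of -0.57. In females the log2 difference was -0.55 ± 0.60 (adjusted p = 0.758, edgeR), and the exact two-sided permutation test gave p = 0.546. The mean over the sexes was -0.53 ± 0.37 (adjusted p = 0.605, edgeR). The female minus male difference was -0.03 ± 0.74 (adjusted p = 0.992, edgeR). These estimates had the sign of the adult difference but were smaller, and none passed the test.

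Single high libraries moved the P42 estimates. Without PAE-VEH male replicate 6, at 40.8 CPM, the log2 difference in males was -0.94 (adjusted p = 0.626, edgeR; range 0.626 to 0.909 over the 29 fits that each left out 1 library). Without PAE-VEH female replicate 2, at 36.4 CPM, the difference in females was -1.41, and without control female replicate 4, at 54.7 CPM, it was -0.16 (range of adjusted p 0.547 to 0.954 over 29 fits, edgeR). At P42 the share of all 24741 genes called was 0.0% in males, in females, in the mean and in the difference between the sexes by edgeR, with 2217, 2786, 2698 and 2617 genes at an unadjusted p under 0.05. DESeq2 called 24, 86, 21 and 77 genes in these comparisons, and voom with library weights called 1, 36, 0 and 81.

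**Figure D2:**
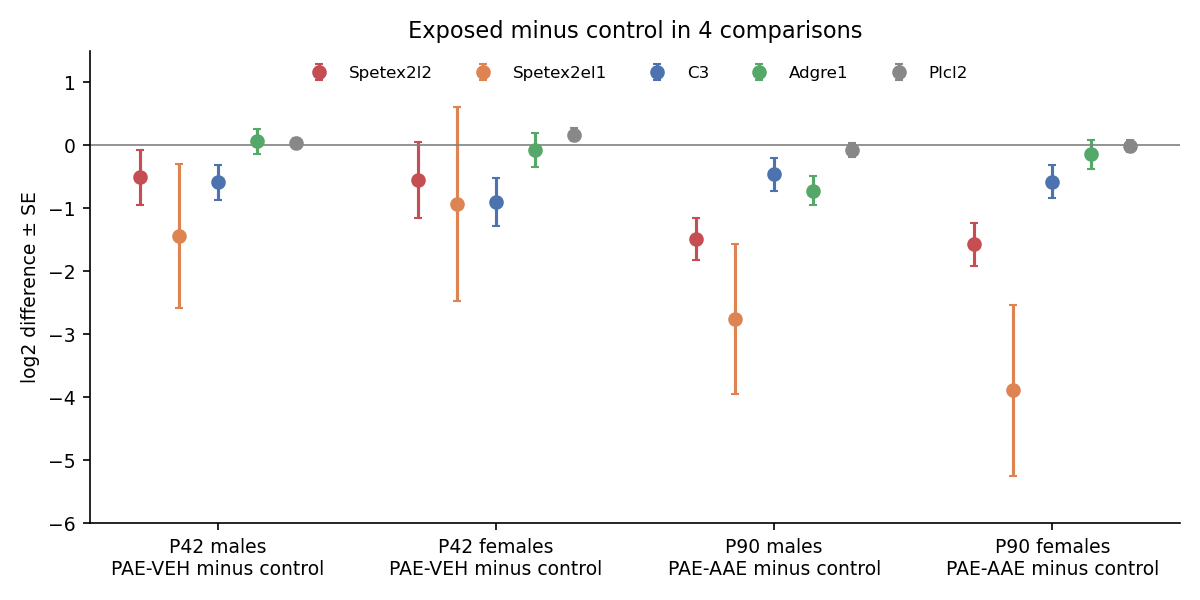
log2 difference ± SE of exposed minus control libraries in males and females at P42 and P90 for Spetex2l2 and its neighbours Spetex2el1, C3, Adgre1 and Plcl2. Spetex2l2 lies at -0.51 and -0.55 at P42 and at -1.49 and -1.57 at P90, where it had been chosen; Plcl2 stays between -0.07 and 0.17.

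In the P42 controls no sex difference of Spetex2l2 passed the test, but each sex group held a library with markers of the other sex. With these libraries kept, edgeR called no gene, Xist and Kdm5d included. The comparison therefore cannot show that a sex difference is absent. Females minus males came to a log2 difference of 0.23 ± 0.41 (adjusted p = 0.986, edgeR; 0.0% of 24065 genes called, 1464 at an unadjusted p under 0.05, 6 called by DESeq2 and 7 by voom). The exact two-sided permutation test gave p = 0.796. Without control female replicate 4 the difference was -0.16. Other ways of fitting, among them a fit without the libraries with markers of the other sex, gave 0.06 to 0.27. In controls, P90 minus P42 was 0.66 ± 0.43 in males and 0.27 ± 0.43 in females, given without a test because the P90 controls took part in choosing the gene. For the same reason the female minus male difference in P90 controls, -0.17 ± 0.44, has no test.

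Among the copies, Spetex2l2 held 70.99% of all counts of the 23 Spetex genes. On the scale of CPM per kb of exonic length its mean level was 3.20, followed by Spetex2el1 at 0.758, Spetex2el3 at 0.590, Spetex2gl1 at 0.216, Spetex-2Fl1 at 0.209 and Spetex2dl1 at 0.0367. The other genes were lower still. In all, 17 of the 23 had a mean under 10 counts and 3 were at 0 in every library. Of the family, 14 genes lie on chromosome 9, 1 on chromosome 12 and 8 on chromosome 15.

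Transcripts of the spermatid list were mixed: some were at or near 0, and 13 of the 25 passed the filter on low counts. Among 25 genes of spermatids, Prm1, Prm2 and Tnp1, which pack sperm DNA, reached at most 0.136, 0.193 and 0.0893 CPM in any library. Tssk1b and Tssk2, kinases of spermatids, were at 0 in every library, but Tssk6 had a mean of 3.01 CPM and at least 1.80 CPM. Gapdhs had a mean of 4.91 CPM, Ybx2 of 2.53 CPM and Hspa1l of 2.12 CPM. The highest members were Odf2 at a mean of 49.7 CPM, Spata18 at 17.6 CPM and Tekt1 at 15.1 CPM, all of which are also used in centrosomes, mitochondria or cilia of other cells. Dlg5 had a mean of 50.04 CPM, and its rho with Spetex2l2 was -0.18.

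Among named genes, those whose levels over the 54 libraries were most like that of Spetex2l2 were all its neighbours. Of 26078 other named genes compared by Spearman's rho of log2 CPM, the 5 highest were LOC120094615 (0.85), Spetex2dl1 (0.84), Spetex2el1 (0.83), Ccdc88al1 (0.71) and Spetex2el5 (0.68). Unnamed loci were left out of this ranking. An unnamed locus of chromosome 9 outside the 1 Mb window had a rho of 0.73, above Ccdc88al1 and Spetex2el5. LOC120094615 is an uncharacterized gene that the deposited table describes by the Takusan domain and by similarity to a retroviral polyprotein. Ccdc88al1, named for its likeness to the actin-binding protein girdin, also carries the Takusan domain in that table. The 3 lowest were LOC120098617 (-0.52), Adgrg3 (-0.51), an adhesion receptor gene, and the pseudogene Haus4-ps1 (-0.49). The points share library and depth, and Spetex2l2 itself had a rho of 0.21 with the total count.

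LOC120094615 followed the 2 ranges of Spetex2l2 without exception. In the 28 libraries of the lower Spetex2l2 range it had 0 or 1 count, and in the 26 of the upper range it had 8 to 146 counts. Spetex2el1, an expressed copy 275 kb before Spetex2l2, was at 0 to 0.404 CPM in the former and at 0.743 to 6.10 CPM in the latter. Spetex2dl1 had at most 2 counts in the lower range and 1 to 28 counts in the upper one.

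The correlations were also computed within each range. The split was made at 3 counts of LOC120094615, which gives the same 28 and 26 libraries as the ranges of Spetex2l2. It was made after seeing the data and narrows the spread of both genes, so the rho of LOC120094615 is within groups set by its own count. Within the 26 libraries of the upper range, rho was 0.65 for Spetex2el1, 0.49 for Spetex2el5, 0.48 for Spetex2dl1, 0.44 for LOC120094615 and 0.29 for Ccdc88al1. Within the 28 of the lower range it was 0.03, -0.16, 0.00, 0.08 and 0.15 for the same genes. In these 28 libraries LOC120094615 and Spetex2dl1 had a count in 3 each and Ccdc88al1 in 1.

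LOC120094615 was at 3 counts or fewer in 6 of 16 control and 10 of 13 PAE-VEH libraries at P42. At P90 this held for 2 of 14 control and 10 of 11 PAE-AAE libraries. The lower range was thus present in every group but the control males at P90. The 3 libraries with Xist and Kdm5d against the labelled sex were all in the lower range.

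**Figure D3:**
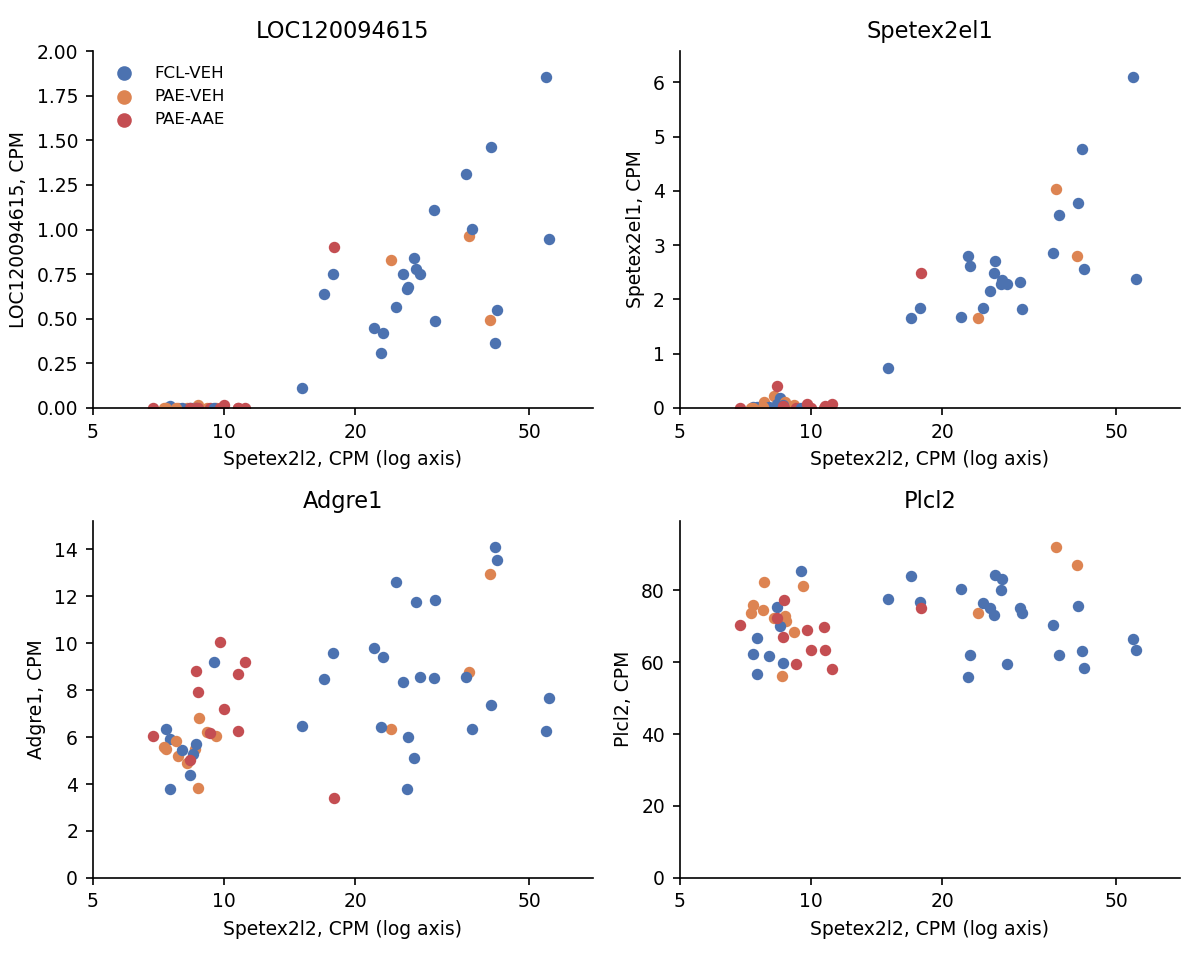
CPM of LOC120094615, Spetex2el1, Adgre1 and Plcl2 (linear axes) against CPM of Spetex2l2 (log axis) in 54 libraries, coloured by exposure. LOC120094615 is at 0 or 1 count in all 28 libraries with Spetex2l2 at 11.2 CPM or less, and Plcl2 shows no such step.

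Spetex copies farther away did not follow Spetex2l2. Over the 54 libraries rho was -0.12 for Spetex2el3, -0.07 for Spetex2gl1 and 0.06 for Spetex-2Fl1, all on chromosome 9 outside the window, and 0.05 for Spetex2l3 on chromosome 12. Spetex2el3 had medians of 3.46 CPM in control and 4.42 CPM in PAE-AAE males at P90, and 5.21 and 5.52 CPM in the females. Inside the window, Spetex2el7, 92.7 kb before Spetex2l2, had a rho of 0.04.

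Of the 54 neighbours, 22 are protein-coding, 24 are pseudogenes and 8 are long non-coding RNAs, and 9 are Spetex genes. In the counts, 5 were at 0 in every library and 40 had a mean under 10. An antisense RNA, LOC134480315, overlaps Spetex2l2 on the - strand and had at most 4 counts. The libraries carry no strand, so reads of the 2 genes cannot be told apart. The edgeR filter kept 17 neighbours at P42 and 15 at P90.

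No neighbour passed the threshold in an exposure comparison by edgeR. At P42, in the mean over the sexes, 13 of 17 were lower in the exposed libraries, with a median log2 difference of -0.24 against -0.01 over all genes tested. At P90, 9 of 15 were lower, with a median of -0.11 against -0.01. The share of all genes that were lower was not counted, so no decrease of the region is read from these counts. Adgre1 and Tbc1d5, each at -0.01, are among the 13 at P42. Spetex2el1 and LOC120094615, in both counts, follow the library pattern of Spetex2l2 and are not separate observations. The nearest neighbour tested before Spetex2l2 was Spetex2el7 at P42, with a log2 difference of -0.56 ± 0.50 in the mean over the sexes (adjusted p = 0.688, edgeR), and LOC120094615, 216 kb away, at P90. The nearest one tested after it was Spetex2el5, 80.2 kb away, with -0.67 ± 0.87 at P42 (adjusted p = 0.788, edgeR).

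At P90, the smallest p-values of neighbours in the mean over the sexes belonged to genes of the cluster and did not pass. Spetex2el5 had 0 to 1 count in the 6 PAE-AAE males and 0 to 2 counts in the 5 PAE-AAE females (adjusted p = 0.576, edgeR). It had 0 to 37 counts in control males and 0 to 17 in control females, with a median of 11 in the females. Of these controls, 3 of 6 males and 3 of 8 females were at 3 counts or fewer, so the groups overlapped. LOC120094615 was at 0 in all 5 PAE-AAE females and had a median of 46.0 counts in control females (adjusted p = 0.985 in the mean, edgeR). Spetex2el1 had a log2 difference of -3.33 ± 0.90 (adjusted p = 1.0, edgeR), with medians of 2.58 CPM in control and 0 CPM in PAE-AAE males, and of 1.98 CPM in control and 0.0373 CPM in PAE-AAE females. These genes share their libraries and their pattern with Spetex2l2, so they do not add independent evidence.

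The PAE-AAE male replicate 4 was the 1 exposed adult in the upper range, at 17.9 CPM of Spetex2l2 and 2.48 CPM of Spetex2el1. Without it, Spetex2el1 (adjusted p = 0.00396, edgeR) and LOC120094615 (adjusted p = 0.00395, edgeR) passed the threshold in the mean over the sexes at P90. Of the 25 fits that each left out 1 adult library, this was the only fit in which a neighbour passed in that mean. The library left out is the exposed exception to the pattern of these same genes, so the 2 calls add no independent evidence. With all libraries, DESeq2 called Spetex2el5 in that mean (adjusted p = 0.0286) and LOC120094615 in P90 females (adjusted p = 0.0341). Spetex2el5, with at most 2 counts in PAE-AAE libraries, passed the filter on low counts through control libraries. LOC120094615, at 0 in all PAE-AAE females, passed it mainly through controls. Both share the pattern of Spetex2l2, which was chosen in these libraries, so these calls add no independent evidence either.

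At P42 the 3 neighbours with the smallest p in the mean were C3, Plcl2 and LOC102554555, and none passed. C3, the central component of complement, had a log2 difference of -0.74 ± 0.24 (adjusted p = 0.339, edgeR), with medians of 7.16 CPM in control and 4.86 CPM in PAE-VEH males and of 7.91 and 4.87 CPM in females. Plcl2, a phospholipase C-like signalling protein, had 0.11 ± 0.06 (adjusted p = 0.541, edgeR). LOC102554555, a long non-coding RNA 160 kb after Spetex2l2, had 0.34 ± 0.22 (adjusted p = 0.572, edgeR). For LOC102554555 this mean joined -0.31 ± 0.26 in males (adjusted p = 0.775, edgeR) and 0.99 ± 0.34 in females (adjusted p = 0.265, edgeR). Its female minus male difference of 1.29 ± 0.43 did not pass either (adjusted p = 0.309, edgeR). At P90, C3 had -0.52 ± 0.18 (adjusted p = 1.0, edgeR). Its rho with Spetex2l2 was 0.26.

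Adgre1, which encodes the macrophage and microglial surface receptor F4/80, was at rank 7 in likeness among named genes, with a rho of 0.57 that fell to 0.40 when group means were subtracted. It was measured at 3.38 to 14.1 CPM, and its rho was 0.57 within the 28 libraries of the lower range and 0.21 within the 26 of the upper range. In adult males its median was 11.8 CPM in controls and 6.22 CPM in PAE-AAE, a log2 difference of -0.72 ± 0.23 (adjusted p = 0.552, edgeR). In adult females the medians were 8.56 and 8.67 CPM, with -0.14 ± 0.23 (adjusted p = 1.0, edgeR). At P42 the mean over the sexes was -0.01 ± 0.17 (adjusted p = 0.988, edgeR).

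Marker lists of cell types had low correlations with Spetex2l2. The microglial list, 6 of 6 genes measured, had a rho of 0.08 with Spetex2l2 as a score, and its members lay between 0.03 for Cx3cr1 and Csf1r and 0.22 for C1qa. Its summed level ranged from 145 to 358 CPM in adult controls and from 102.6 to 222 CPM in adult exposed libraries. The scores of spiny neurons, cortical excitatory neurons, choroid plexus, ependyma, myelin, astrocytes, endothelium and blood immune cells had rho values between -0.16 and 0.17. In bulk tissue, fewer cells of a type and less RNA per cell cannot be told apart.

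**Figure D4:**
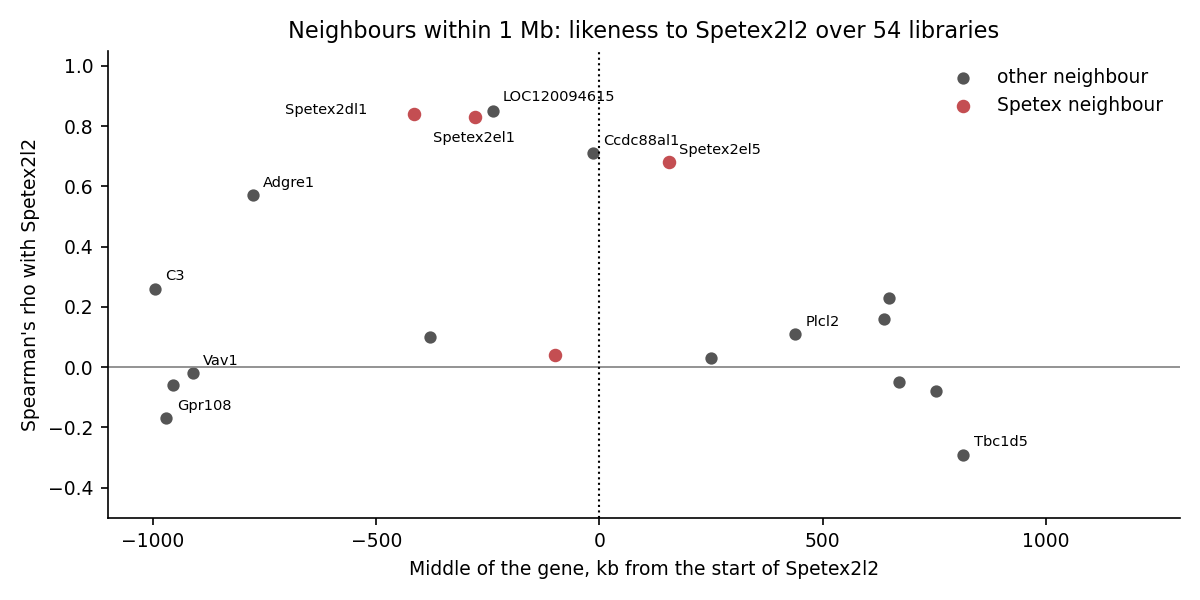
Spearman's rho with Spetex2l2 over 54 libraries for the 19 neighbours that passed the filter on low counts, against the distance of each gene's middle from the start of Spetex2l2 in kb. The 5 highest genes, between 0.68 and 0.85, lie between -416 and 155 kb, with Spetex2el7 at 0.04 and LOC120094610 at 0.10 among them, and, apart from Adgre1 at 0.57, the genes farther out stay between -0.29 and 0.26.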

How the data were processed

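Bulk RNA of the nucleus accumbens was sequenced in 54 libraries of 8 groups, taken from the sample titles; replicates were numbered as deposited. The authors deposited 1 table with raw read counts and FPKM values per gene and library, and with each gene's exonic length (another quantity in that deposited table). The submitters' processing notes name fastp and HISAT2 2.0.5; for the read counter and annotation release, the sources used here give nothing. Libraries were not strand-specific, per the labels' protocols. Of 46505 genes, 720 have no name and stayed out of the tests (0.271% to 0.412% of counts). The IDs of 45780 genes matched RefSeq on GRCr8 with identical start and end, and coordinates are given on that build.

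Counts were tested with edgeR 4.0.16 in R 4.3.3 (TMM, filter on low counts by group, quasi-likelihood F test, two-sided, Benjamini-Hochberg over all genes, threshold 0.05) in 3 fits with 4 group means each: 29 P42, 25 P90 and 30 control libraries. The test was tested on simulated data. These had the same spread for every gene and no separate ranges like those of Spetex2l2. CPM use TMM-scaled library sizes, except those of Xist and Kdm5d, which use the unscaled library total. Permutation tests used SciPy 1.17.1, and promoter windows were aligned locally with Biopython 1.88. Alternatives were size factors by relative log expression, no filter, DESeq2 1.42.0, 1 fit of 54 libraries, voom with library weights (limma 3.58.1), a fit without the 3 libraries that had sex markers of the other sex, leaving out each library, a window of 500 kb, CPM per total count and the authors' deposited FPKM. Depth intervals cover counting error alone, since reads carry no molecular identifiers.

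The gene, its neighbours, the lists and the rule for named genes were chosen with earlier results of these data known. The rule named Spetex2l2 in every comparison; up to 6 Spetex genes by level per kb; the nearest tested neighbour on each side and the 3 neighbours with the smallest p where fewer than 3 passed; the 5 genes most like and 3 least like Spetex2l2; and up to 3 members of each list. Adgre1, the spatially distant Spetex genes and the members of a list beyond these were named after their values were seen.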

Additional observations from a re-analysis of the deposited data

Results flagged for a closer look

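In 24 checks of a single library against the rest of its group, over Spetex2l2, Spetex2el1 and LOC120094615 in 8 groups, 7 values from 4 libraries stood apart by Dixon's test. The usual chance rate of about 1 in 20 groups does not apply to them as it stands, since the 3 genes share a pattern of 2 ranges over the libraries and many of their values are 0. Spetex2l2 was at 40.8 CPM in PAE-VEH male replicate 6 at P42, where the other 8 males ranged from 7.29 to 24.2 CPM. It was at 36.4 CPM in PAE-VEH female replicate 2 at P42, against 7.77 to 9.59 CPM in the other 3. The same female had 4.04 CPM of Spetex2el1, against at most 0.109 CPM, and 0.967 CPM of LOC120094615, against at most 0.0156 CPM. PAE-AAE male replicate 4 at P90 had 2.48 CPM of Spetex2el1, against at most 0.0667 CPM in the other 5 males, and 0.900 CPM of LOC120094615, against at most 0.0152 CPM. PAE-AAE female replicate 1 at P90 had 0.404 CPM of Spetex2el1, against at most 0.0800 CPM, while its Spetex2l2 level of 8.34 CPM was the lowest of its group.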

How the results depend on the processing

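No paired analysis was possible because the titles carry library names and no replicate numbers shared between groups. Over the alternatives that kept all groups, the log2 difference of Spetex2l2 at P42 stayed between -0.82 and -0.52 in males and between -0.69 and -0.40 in females, and none passed the threshold; at P90 it stayed between -1.53 and -1.48 in males and between -1.57 and -1.41 in females. The female minus male difference at P42, -0.03, was 0.42 with voom and ranged from -0.89 to 0.39 when 1 library was left out. The sex difference in P42 controls ranged from -0.16 to 0.44 when 1 library was left out; the cause was not tested. Leaving out 1 library gave ranges of -0.94 to -0.30 for P42 males, -1.41 to -0.16 for P42 females and -0.96 to -0.34 for their mean, and of -1.68 to -1.38 for P90 males and -1.70 to -1.34 for P90 females. The count of neighbours past the threshold, 0 by edgeR, was 1 by DESeq2 in P90 females and 1 by DESeq2 in the P90 mean, and 0 to 2 in the P90 mean when 1 library was left out. The 5 named genes most like Spetex2l2 were the same 5 by Pearson's r and shared 4 genes after group means were subtracted. The split of the likeness by the count of LOC120094615, which matched the 2 ranges of Spetex2l2, was chosen after seeing the data. Low counts limit LOC120094615, Spetex2dl1, Spetex2el5 and Ccdc88al1, where 3 counts or fewer cannot be told from 0.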

Other observations

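An unnamed locus of the deposited table on chromosome 9, at 12851505 to 13042414 on the - strand, had a rho of 0.73 with Spetex2l2 over the 54 libraries, the highest of 596 unnamed loci with a mean of at least 10 counts. It lies outside the 1 Mb window. Its medians were 4.30 and 4.24 CPM in control males and females at P90 and 3.53 and 3.01 CPM in the PAE-AAE males and females. At P42 its medians were 3.48 and 3.42 CPM in control males and females and 3.02 and 3.40 CPM in the PAE-VEH groups. It was chosen after its values were seen, and no test was made of it.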
